A study of Rattus norvegicus with 12 samples.

Results

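Collagens are proteins of the extracellular matrix built from 3 polypeptide chains, alike or different, and each kind of chain is encoded by its own gene. The chain genes were taken as the probe sets whose single gene symbol consists of Col, a number, the letter a and a number. Of 14497 genes with a probe set of their own, 25 met this rule, and all 25 were among the 10025 genes tested. By type of collagen, 10 were fibrillar (Col1a1, Col1a2, Col2a1, Col3a1, Col5a1, Col5a2, Col5a3, Col11a1, Col11a2 and Col27a1), 3 belonged to the basement membrane (Col4a1, Col4a3 and Col4a4) and 12 were of other types (Col6a4, Col7a1, Col8a1, Col9a1, Col9a2, Col10a1, Col12a1, Col13a1, Col14a1, Col16a1, Col17a1 and Col23a1). A list of 15 chains usual in heart had been drawn up, of which 9 were present under the rule. Col4a2, Col15a1, Col18a1, Col6a1, Col6a2 and Col6a3 were not analysed here.

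Expression was measured on 12 Affymetrix gene arrays, each from a culture of ventricular cardiomyocytes of newborn Wistar rats. The 12 arrays fell into 4 groups of 3. Untreated cultures were the control, and the γ+, γ- and 23/24 groups were infected with adenovirus for mef2Cγ+, mef2Cγ- and mef2Cγ+23/24, of which the labels do not define 23/24. MEF2C is a muscle transcription factor whose messenger RNA is spliced with or without a stretch called γ, known as a repressor domain, and the comparisons asked how these forms alter gene expression. All cultures were plated on type-I collagen and, after 44 h with serum, kept 24 h without it. An empty virus was not among the groups, so effects of infection as such cannot be told apart from those of MEF2C in comparisons with control. The labels number biological replicates without saying that they were separate cell isolations, so the p-values measure the spread between these samples.

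Fibrillar collagens, above all types I and III, form the cable-like fibrils that hold cardiac muscle together, and types V and XI seed fibrils and limit their width. Type IV collagen forms the sheet-like network of the basement membrane that surrounds each cardiomyocyte and each capillary. In the heart fibroblasts make most of the fibrillar collagen, while muscle and endothelial cells also make chains of the basement membrane.

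Values were taken as log2 intensities from their range, so a difference of 1 is read as a doubling. Array medians ran from 5.33 to 5.53. The second γ+ array lay farthest from the others of its group over all genes (SD of its deviation 0.233, against 0.104 to 0.148 for the 11 others). Exactly equal values on pairs of arrays occurred in 0 of 45 pairs across 3 sets (control with 23/24; γ+; γ-) and in 21 of 21 pairs inside a set. This pattern is that of arrays normalized in separate runs, in which case only the 23/24 group against control lies within a run. Cardiomyocyte markers were well measured in the control, with all 10 listed genes tested and a mean log2 level of 11.73 to 11.79 per array. The 12 listed fibroblast markers were also all tested, with a mean of 8.07 to 8.14.

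In the γ+ group the major collagen chains were strongly reduced against control. Of the 25 chain genes, 15 were lower and 1 was higher at a limma adjusted p under 0.05, beside 38.7% of all genes tested lower and 26.2% higher. A fall of at least 1 log2 was seen for 6 chain genes (Col3a1, Col8a1, Col14a1, Col1a1, Col1a2 and Col4a1), against 5.95% of all genes. The median log2 fold change of the 25 was -0.27, beside -0.07 over all genes. Of all calls in this comparison 40.4% were higher genes, a share that became 51.2% when each array was centred on its median, and 12 chain genes were then lower.

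The fibrils' main chains fell most among the fibrillar collagens. Col3a1, the single chain of type III collagen, read 9.87, 9.86 and 9.83 on the control arrays and 7.89, 7.47 and 7.86 on the γ+ arrays. The lowest control array thus stood well above the highest γ+ array, and the second γ+ array was the lowest of all. The difference was -2.11 ± 0.08 log2 (SE, n = 3 per group, limma adjusted p = 2.41e-12), a 4.33-fold lower intensity. Col1a1, which supplies the α1 chain of type I collagen, read 11.51, 11.48 and 11.50 in the control and 9.82, 9.82 and 9.76 in the γ+ group. These groups were far apart and tight, with a difference of -1.69 ± 0.04 (adjusted p = 2.25e-14). Its partner Col1a2, the α2 chain, read 11.30, 11.20 and 11.26 against 9.88, 9.68 and 9.87. The groups did not overlap, and the difference was -1.44 ± 0.06 (adjusted p = 2.12e-12).

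Because Col1a2 was among the chain genes that fell most and has a RefSeq promoter entry, the first 110 of the 250 bases before its RefSeq start are shown, on the plus strand (GRCr8, chr4:33518307-33518416). Capitals mark CCAAT, here on the opposite strand as ATTGG, and TATAAA, the letters of general promoter elements. They begin 221 and 170 bases before the start, and whether they act at this start was not tested.
Col1a2: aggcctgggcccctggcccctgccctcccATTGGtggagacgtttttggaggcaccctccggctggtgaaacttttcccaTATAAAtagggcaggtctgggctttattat

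**Figure D1:**
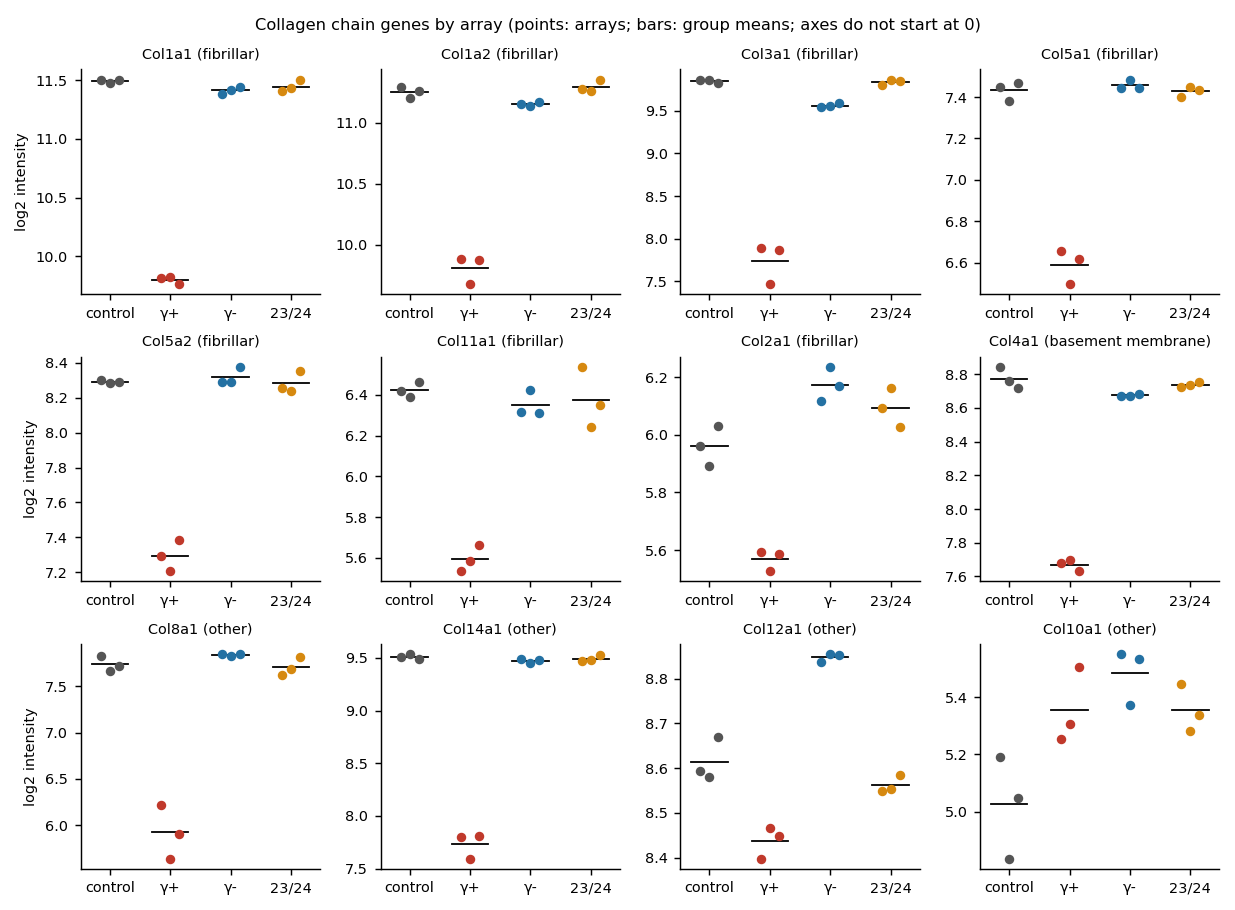
Log2 intensity (vertical axes, which do not start at 0) of 12 collagen chain genes on each array of the 4 groups; points are arrays and bars are group means. For Col1a1, Col1a2, Col3a1, Col4a1, Col8a1 and Col14a1 the 3 γ+ arrays lie far below all others, whereas Col12a1 is highest in the γ- group and Col10a1 lowest in the control.

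The chains that seed fibrils were lower as well. Col5a2 of type V collagen read 8.30, 8.28 and 8.29 in the control and 7.29, 7.21 and 7.39 in the γ+ group, a difference of -0.997 ± 0.06 (limma adjusted p = 4.9e-10). Col5a1, its partner chain, read 7.45, 7.38 and 7.47 against 6.66, 6.50 and 6.62, a difference of -0.84 ± 0.06 (adjusted p = 4.88e-09). Neither gene's groups overlapped. Col11a1 of type XI collagen fell from a mean of 6.42 to 5.59 (adjusted p = 1.69e-07), and Col2a1, the chain of cartilage type II collagen, from 5.96 to 5.57 (adjusted p = 2.18e-04). The remaining 3 fibrillar genes were not called: Col5a3 differed by -0.18 (adjusted p = 0.102), Col27a1 by -0.03 (adjusted p = 0.824) and Col11a2 by 0.24 (adjusted p = 0.057). In all, 7 of the 10 fibrillar genes were lower and 0 higher, with a median of -0.84. Col11a2 was called higher under median centring, quantile normalization and array weights, and without the third control or the third γ+ array.

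Chains that assemble into 1 molecule can be set against each other within an array. Col1a1 minus Col1a2 lay between 0.21 and 0.28 on the control arrays and between -0.11 and 0.15 on the γ+ arrays. The shift was -0.25 ± 0.08 (SE, for pairs taken from the compared arrays alone). The difference between Col1a1 and Col1a2 also lay below the control in the 23/24 group, without overlap (0.13 to 0.17, a shift of -0.09 ± 0.02). The γ+ and 23/24 arrays overlapped (-0.16 ± 0.08). This difference shifted by 0.02 ± 0.02 in the γ- group, which overlapped the control. Col5a1 minus Col5a2 was higher in the γ+ group by 0.16 ± 0.05, and by 0.00 ± 0.05 in both the γ- and the 23/24 group, which overlapped the control. Col11a1 minus Col11a2 ran from 0.37 to 0.63 in the control and from -0.72 to -0.41 in the γ+ group, a shift of -1.07 ± 0.12. It was below the control in the other infected groups too, by -0.25 ± 0.09 in the γ- group (separate arrays) and -0.28 ± 0.12 in the 23/24 group (overlapping arrays). For this pair the γ+ arrays were separate from those of both groups, with shifts of -0.82 ± 0.10 and -0.79 ± 0.13. In these 3 pairs the γ+ and control arrays were separate, and an exact permutation test of 3 against 3 arrays cannot go below p = 0.1. Probe sets differ in their response, so the level of such a difference cannot be read. A shift may also hold unequal response of the probe sets of a pair, which was not tested. The pairs were chosen after the values had been seen.

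All 3 basement membrane chains were lower in the γ+ group, with a median of -0.36. Col4a1, the α1 chain found in nearly every basement membrane, read 8.84, 8.76 and 8.72 in the control and 7.68, 7.69 and 7.63 in the γ+ group. The γ+ arrays were about 1 unit below every control array, a difference of -1.11 ± 0.05 (limma adjusted p = 2.09e-11). Col4a4, a chain of specialised membranes such as that of the glomerulus, read 7.05, 6.97 and 6.98 against 6.77, 6.44 and 6.70, without overlap (-0.36 ± 0.08, adjusted p = 6.68e-04). Its partner Col4a3 read 6.44, 6.59 and 6.56 against 6.08, 6.49 and 6.23. Here the arrays overlapped, and the call (-0.26 ± 0.09, adjusted p = 0.0169) was lost under median centring (adjusted p = 0.111), under quantile normalization, with the 6 compared arrays alone, and without the second control, the first γ+ or the third γ+ array.

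Genes of type IV collagen lie in head-to-head pairs, which share the stretch between their starts. In RefSeq (GRCr8) the starts of Col4a1 and Col4a2 are separated by 76 bases, and those of Col4a3 and Col4a4 by 412. Col4a1, on one side of its pair, changed by -1.11, and Col4a3 and Col4a4, on both sides of theirs, by -0.26 and -0.36. The stretch shared by Col4a1 and Col4a2 is printed as read towards Col4a1 on the plus strand (chr16:84885521-84885596), with capitals marking GGGCGG, the core of a binding site of Sp1, here on the opposite strand as CCGCCC.
Col4a1: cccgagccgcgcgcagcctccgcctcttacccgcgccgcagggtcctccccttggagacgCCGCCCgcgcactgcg

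Among the 12 chains of other types, 5 were lower (41.7%) and 1 was higher in the γ+ group, a share of lower genes near the 38.7% of all genes, and the median was -0.17. Col8a1, a short chain of vessel-wall and remodelling matrix, read 7.82, 7.67 and 7.72 in the control and 6.22, 5.64 and 5.91 in the γ+ group. The γ+ arrays were spread widely, with the second lowest, but none came near the control (-1.81 ± 0.11, limma adjusted p = 3.11e-10). Col14a1, which coats the surface of fibrils, read 9.51, 9.53 and 9.49 against 7.80, 7.60 and 7.81, again far apart (-1.78 ± 0.06, adjusted p = 3.51e-13).

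The related Col12a1, also a coat protein of fibrils, read 8.59, 8.58 and 8.67 in the control and 8.40, 8.47 and 8.45 in the γ+ group. The arrays did not overlap, yet the fall was only 0.18 ± 0.05 (limma adjusted p = 0.00631), and under median centring it was not called (adjusted p = 0.247). Col9a1, a chain that decorates cartilage fibrils, read 5.36, 5.09 and 5.77 against 4.84, 4.57 and 4.71. The control arrays varied more than those of any other chain gene (SD 0.34), and all 3 stood above the γ+ arrays (-0.70 ± 0.14, adjusted p = 3.17e-04). Col16a1, another fibril-associated chain, differed by -0.21 ± 0.09 (adjusted p = 0.0397). It lost the call under median centring (adjusted p = 0.237) and quantile normalization, with no filter, with the 6 compared arrays alone, and without the second or the third control or the first or the third γ+ array.

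The promoter window of Col8a1, chosen because the gene fell in the γ+ group, covers the 250 bases before its RefSeq start on the plus strand (chr11:56246532-56246781). It holds GGGCGG 4 times, each on the opposite strand (CCGCCC, in capitals), and neither CCAAT nor TATAAA.
Col8a1: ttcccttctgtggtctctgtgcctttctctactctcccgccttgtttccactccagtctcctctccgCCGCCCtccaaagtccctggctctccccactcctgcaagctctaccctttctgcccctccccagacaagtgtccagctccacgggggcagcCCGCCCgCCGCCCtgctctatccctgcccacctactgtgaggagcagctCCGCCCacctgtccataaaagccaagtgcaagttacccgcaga

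Col10a1, the chain of hypertrophic cartilage, was the single chain gene called higher in the γ+ group. It read 5.19, 4.84 and 5.05 in the control and 5.25, 5.31 and 5.51 in the γ+ group. The groups were separate but close, with the second control array the lowest (0.33 ± 0.11, limma adjusted p = 0.012). Without that array the difference was 0.24 (adjusted p = 0.0739), and without the third γ+ array it was 0.25 (adjusted p = 0.0669). The window upstream of Col10a1 (plus strand, chr20:39737286-39737535), shown since this gene moved against the others, holds CCAAT and TATAAA, in capitals, the latter beginning 31 bases before the start.
Col10a1: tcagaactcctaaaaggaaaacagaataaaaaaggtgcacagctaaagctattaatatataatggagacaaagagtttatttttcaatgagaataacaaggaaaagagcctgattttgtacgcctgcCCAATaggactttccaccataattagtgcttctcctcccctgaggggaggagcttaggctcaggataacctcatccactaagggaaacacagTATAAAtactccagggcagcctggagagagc

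The other 6 genes of this class were not called in the γ+ group. Col6a4, a chain of beaded filaments, differed by -0.27 (limma adjusted p = 0.0619), and the membrane-spanning chain Col17a1 by -0.16. Col7a1 of anchoring fibrils differed by -0.11, Col9a2 and the membrane-spanning Col23a1 both by -0.08, and Col13a1, also membrane-spanning, by -0.02. Col6a4 was the only chain gene with more than 1 probe set. Of its 3 probe sets, 2 had means under the filter of 4.78 (3.69 and 4.70), and the other stood for the gene at 5.37.

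**Figure D2:**
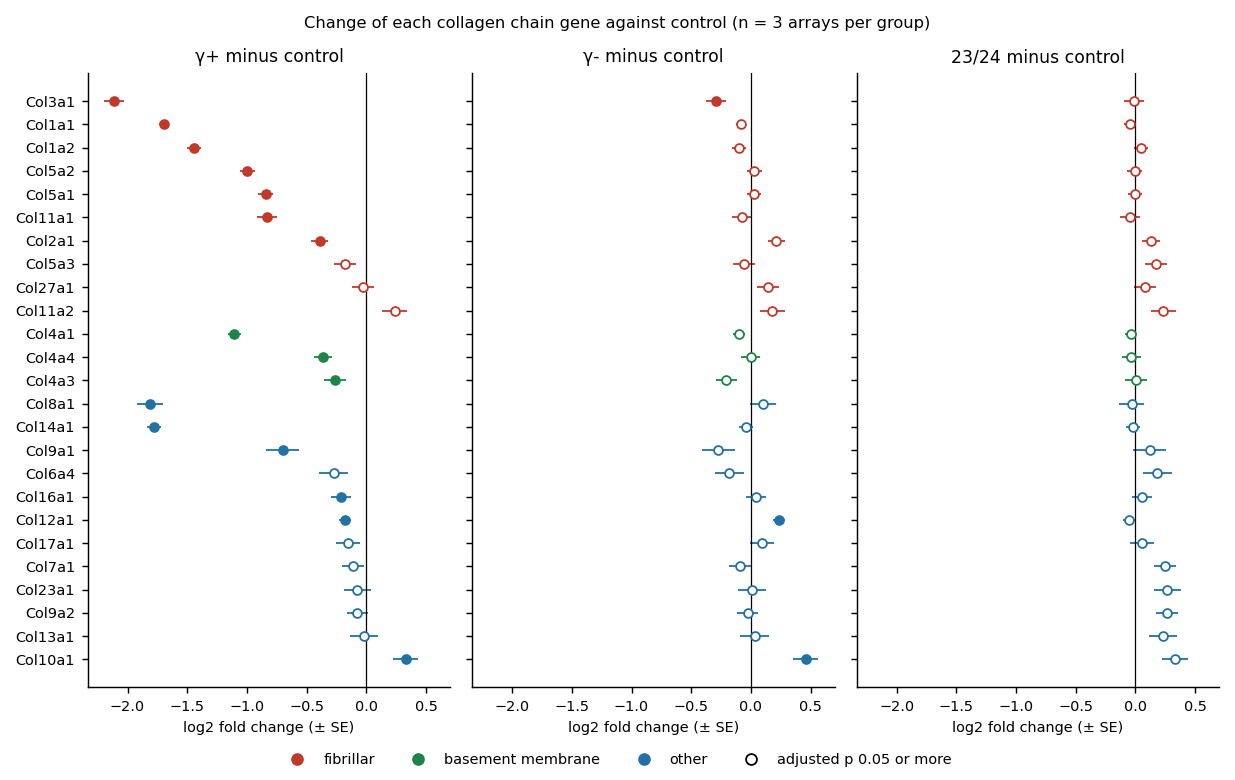
Log2 fold change (horizontal axis, ± SE, 3 arrays per group) of each of the 25 collagen chain genes in the γ+, γ- and 23/24 groups against control; filled points have an adjusted p under 0.05 and colours mark the class. In the γ+ panel 15 filled points lie left of 0 and 1 lies right, in the γ- panel 1 lies left and 2 lie right, and the 23/24 panel has none.

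The changes went with the intensity of the probe set. Mean intensity over the 12 arrays was above the 60th percentile of all probe sets (log2 6.16) for 13 chain genes, of which 12 were lower in the γ+ group, with a median change of -0.997. The exception was Col9a2. Of the 12 at or below it, 3 were lower (Col2a1, Col9a1 and Col16a1) and 1 higher (Col10a1), with a median of -0.13. Over all genes tested, 40.3% of those above and 34.2% of those at or below this level were lower. Intensity is not comparable between probe sets as a measure of transcript number, and dim probe sets can show less of a given change.

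**Figure D3:**
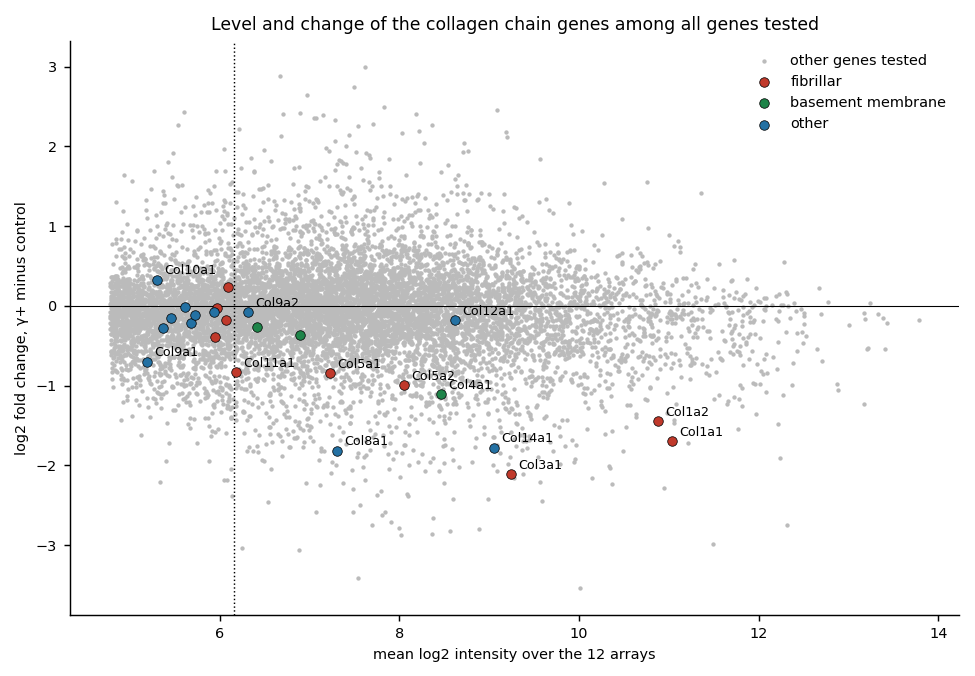
Log2 fold change in the γ+ group against control (vertical axis) by mean log2 intensity over the 12 arrays (horizontal axis), for the 25 collagen chain genes in colour by class and the other genes tested in grey; the dotted line is the 60th percentile, 6.16. Chain genes right of the line run down to -2.11, while most left of it stay near 0.

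The γ- group, which received the form without the γ stretch, barely departed from control. Of the 25 chain genes, 1 was lower and 2 were higher at a limma adjusted p under 0.05, beside 3.88% of all genes lower and 3.06% higher. The median change of the 25 was 0.00, and that of all genes -0.01. Col3a1 read 9.55, 9.55 and 9.59 in the γ- group, below all 3 control arrays (9.83 to 9.87), a difference of -0.29 ± 0.08 (limma adjusted p = 0.0456). This call was lost under median centring (adjusted p = 0.0983), the 60th percentile filter, no intensity trend and the replicate block (adjusted p = 0.0595). It was also lost when any of the 6 arrays was left out (adjusted p = 0.0973 to 0.13). The call was kept in 5 of 15 settings (limma adjusted p down to 3.5e-04). These were quantile normalization, no filter, the mean over probe sets, array weights and the 6 compared arrays alone.

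Col12a1 set the γ- group apart from every other group. Its γ- arrays read 8.84, 8.85 and 8.85, above the control (8.58 to 8.67), the 23/24 group (8.55, 8.55 and 8.58) and the γ+ group (8.40 to 8.47). The difference from control was 0.23 ± 0.05 (limma adjusted p = 0.014). Leaving out the first or second control array, or the second or the third γ- array, took the adjusted p to between 0.0536 and 0.0616 with differences of 0.22 to 0.23. Col10a1 read 5.55, 5.37 and 5.53 in the γ- group, above every control array (0.46 ± 0.11, adjusted p = 0.0185). Without the second control array the difference was 0.36 (adjusted p = 0.0798), and the call was also lost without the first or the third γ- array. The 22 other chain genes were not called, type I collagen among them: Col1a1 differed by -0.08 (adjusted p = 0.282) and Col1a2 by -0.10 (adjusted p = 0.31). For both genes the γ- arrays nonetheless lay just below every control array. Those of Col1a1 ran from 11.38 to 11.44 against 11.48 to 11.51, and those of Col1a2 from 11.14 to 11.17 against 11.20 to 11.30.

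In the 23/24 group 0 of the 25 chain genes were called in either direction by limma, as were 0% of all genes lower and 0% higher. At an unadjusted p under 0.05 there were 5 chain genes and 899 of all genes. Col1a1 read 11.41, 11.43 and 11.50, overlapping the control (-0.05 ± 0.04, adjusted p = 0.784). Col3a1 read 9.80, 9.87 and 9.85, also overlapping the control (-0.01 ± 0.08, adjusted p = 0.976). Col1a2 read 11.28, 11.26 and 11.36 (0.05 ± 0.06, adjusted p = 0.857), and Col4a1 8.72, 8.74 and 8.75 (-0.04 ± 0.05, adjusted p = 0.88). Col10a1 read 5.45, 5.28 and 5.34, above every control array by 0.33 ± 0.11, which is as far as the γ+ mean lay (0.33), with an unadjusted p of 0.00662 and an adjusted p of 0.382. The γ+ and 23/24 groups overlapped for this gene. The median change of the 25 was 0.05, beside -0.02 over all genes. Among the 12 dimmer chain genes it was 0.18, and the first 23/24 array was the highest of the 12 for several of them, such as Col6a4 (5.92), Col7a1 (6.13) and Col23a1 (6.39). That array also had the highest median of all 12 (5.53), and its part in these values was not tested.

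Set directly against the γ- group, the γ+ group had 15 chain genes lower and 0 higher, beside 37.5% of all genes lower and 26.7% higher, with a median of -0.36 against -0.06. The γ- arrays read 11.38, 11.42 and 11.44 for Col1a1, far above the γ+ arrays (-1.61 ± 0.04, limma adjusted p = 4.62e-14). For Col8a1 they read 7.84, 7.82 and 7.85, again far above (-1.91 ± 0.11, adjusted p = 1.67e-10). The γ- values of Col14a1 were 9.48, 9.46 and 9.47 (-1.73 ± 0.06, adjusted p = 5.5e-13), and those of Col3a1, given above, gave a difference of -1.82 ± 0.08 (adjusted p = 1.4e-11). Col1a2, at 11.15, 11.14 and 11.17 in the γ- group, differed by -1.34 ± 0.06 (adjusted p = 5.23e-12). Col12a1 differed by -0.41 ± 0.05 (adjusted p = 2.7e-06), a call kept under every other scaling, filter and variance choice tried and without any 1 array, though the change is under 1 log2.

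The basement membrane chains separated these groups for Col4a1 and Col4a4. Col4a1 read 8.67, 8.67 and 8.68 in the γ- group, above all γ+ arrays (-1.01 ± 0.05, limma adjusted p = 7.28e-11). Col4a4 read 7.02, 6.96 and 7.01, also separate (-0.36 ± 0.08, adjusted p = 7.02e-04). Col4a3 differed by -0.06 and was not called (adjusted p = 0.585). Col9a1 read 5.14, 5.13 and 5.14, above all γ+ arrays (-0.43 ± 0.14, adjusted p = 0.0127).

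Against the 23/24 group, the γ+ group had 20 chain genes lower and 0 higher, beside 37.9% of all genes lower and 28% higher. The median was -0.36, beside -0.07 over all genes. Col3a1 differed by -2.10 ± 0.08 (limma adjusted p = 2.68e-12), Col1a1 by -1.65 ± 0.04 (adjusted p = 3.12e-14) and Col1a2 by -1.49 ± 0.06 (adjusted p = 1.55e-12). Col8a1 read 7.62, 7.68 and 7.81 in the 23/24 group, above all γ+ arrays (-1.78 ± 0.11, adjusted p = 3.99e-10). Col14a1 read 9.47, 9.48 and 9.53 there (-1.76 ± 0.06, adjusted p = 4.39e-13). Of all calls 42.5% were higher genes, and 58.5% under median centring, which moved the median of all genes by 0.14 and left 15 chain genes lower. Col12a1, called here at -0.13 (adjusted p = 0.0411), turned to 0.01 under that centring (adjusted p = 0.883). The 5 genes not called were Col10a1, Col11a2, Col13a1, Col17a1 and Col27a1. These comparisons of the γ+ group share its arrays, and those with control share the control arrays.

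Between the γ- and 23/24 groups, 1 chain gene was lower and 1 higher in the γ- group, beside 3.94% and 4.16% of all genes. Col12a1 was higher by 0.29 ± 0.05 (limma adjusted p = 0.00434). Col7a1 read 5.61, 5.65 and 5.62 in the γ- group and 6.13, 5.96 and 5.79 in the 23/24 group. The arrays did not overlap, but the 23/24 arrays were spread widely (-0.34 ± 0.09, adjusted p = 0.0346). The Col7a1 call was lost under median centring, with the replicate block, and without any 1 of the 3 γ- arrays or the first or the second 23/24 array (adjusted p = 0.0546 to 0.154). Of all calls 51.4% were higher genes, and 77.9% under median centring. The count of lower chain genes was 7 when the 6 arrays were fitted alone and 8 with array weights. The share of all genes lower under these settings is not given here. With an F test over the 4 groups, 20 of the 25 chain genes differed, beside 70.3% of all genes.

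**Figure D4:**
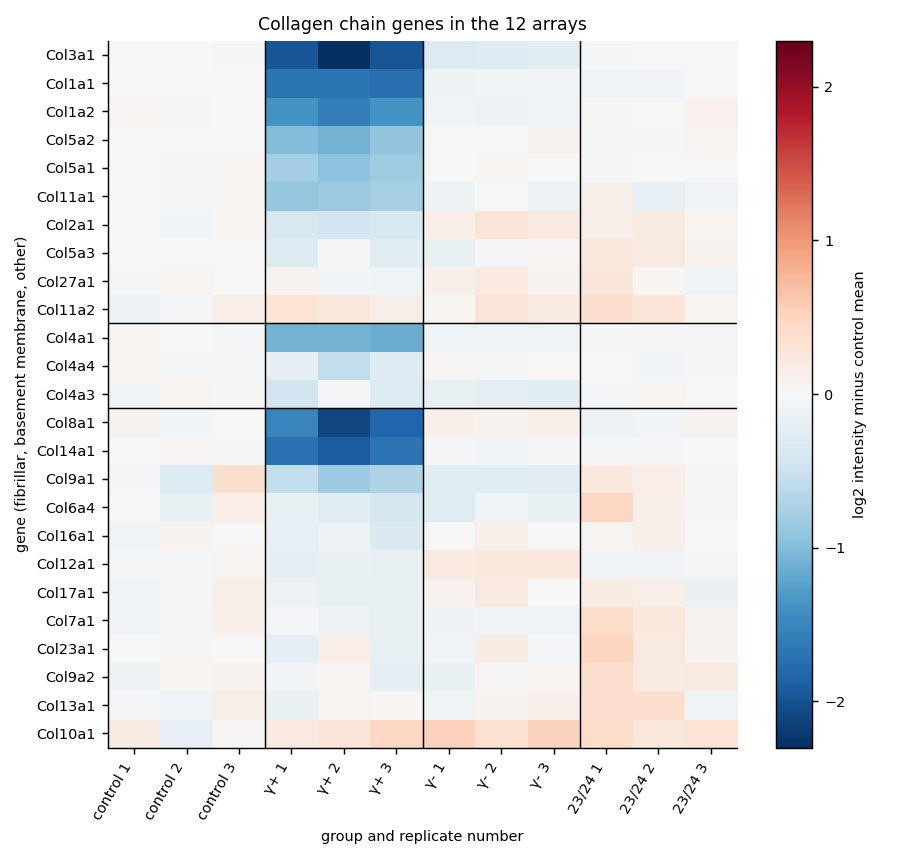
Difference of each collagen chain gene (rows, by class) on each of the 12 arrays (columns) from the control mean, in log2 units by the colour scale. The deepest blue lies in the γ+ columns, for Col3a1, Col8a1, Col14a1, Col1a1, Col1a2 and Col4a1. Paler blue is seen there for genes such as Col5a2, Col5a1, Col11a1 and Col9a1. The darkest cell for Col3a1 and Col8a1 is the second γ+ array.

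Pathway and marker counts of the γ+ group below stand beside 38.7% of all genes lower against control and an all-gene median of -0.07. Genes for modifying and folding collagen chains (enzymes, chaperones and a few other factors) were lower for 16 of 19 tested, with 0 higher and a median of -0.56. Plod2, which hydroxylates lysines used for cross-links, fell by 1.02 ± 0.05 (limma adjusted p = 4.49e-11). P3h2, a prolyl 3-hydroxylase, fell by 1.26 ± 0.07 (adjusted p = 3.16e-10), and Serpinh1, the collagen chaperone HSP47, fell by 0.71 ± 0.05 (adjusted p = 7.25e-09). Of 11 genes for trimming propeptides and cross-linking, 8 were lower and 0 higher, with a median of -0.49. Lox, the lysyl oxidase that starts cross-linking, fell by 1.98 ± 0.05 (adjusted p = 1.99e-14), its relative Loxl1 fell by 1.84 ± 0.05 (adjusted p = 1.19e-13), and Adamts2, which removes the amino-terminal propeptide, fell by 0.88 ± 0.06 (adjusted p = 1.92e-09).

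Matrix proteins that bind fibrils were lower for 11 of 12 genes, with a median of -0.96. Prelp, a small leucine-rich proteoglycan, fell by 2.42 ± 0.11 (limma adjusted p = 8.06e-12), Postn (periostin) fell by 1.53 ± 0.07 (adjusted p = 1.3e-11) and Fn1 (fibronectin) fell by 0.86 ± 0.04 (adjusted p = 1.88e-11). Comp, at 0.17, was not called (adjusted p = 0.105). All 9 collagen receptors tested were lower, with a median of -0.99. They included Itga1 and Itga2, the α subunits of collagen-binding integrins, at -1.64 ± 0.09 (adjusted p = 6.69e-11) and -1.63 ± 0.10 (adjusted p = 2.66e-10), and Cd36, a scavenger receptor, at -1.48 ± 0.07 (adjusted p = 1.2e-11). Of 8 genes of collagen degradation, 7 were lower and 1 higher, with a median of -0.88. The inhibitor Timp3 changed by -1.67 ± 0.07 (adjusted p = 5.8e-12), Timp2, another inhibitor, by -1.03 ± 0.06 (adjusted p = 9.37e-11) and the membrane protease Mmp14 by -1.08 ± 0.05 (adjusted p = 1.04e-11). The inhibitor Timp4 was higher by 0.27 ± 0.09 (adjusted p = 0.0158), a call lost without the first control or the third γ+ array (adjusted p up to 0.0597).

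Laminins and other partners of type IV collagen were lower for 8 of 9 genes, with a median of -0.27. The count was only 4 under median centring and 5 under quantile normalization. The shares of all genes lower under these scalings are not given here. Lamb3, the laminin β3 chain, fell by 2.58 ± 0.07 (limma adjusted p = 3.3e-14), Lamc1, the γ1 chain of most laminins, fell by 0.89 ± 0.07 (adjusted p = 7.83e-09) and Lama5 fell by 0.35 ± 0.06 (adjusted p = 8.95e-05). In the γ- group against control, 1 of 19 genes for chain modification and folding and 1 of 11 for propeptides and cross-linking were lower. So were 1 of 12 fibril-binding proteins, 1 of 9 basement membrane partners (with 1 higher), 2 of 9 receptors and 0 of 8 degradation genes. These stand beside 3.88% of all genes lower and 3.06% higher. P3h2 changed by -0.34 (adjusted p = 0.0138), Loxl1 by -0.34 (adjusted p = 0.00266), Prelp by -0.44 (adjusted p = 0.0228), Lama1 by -0.42 (adjusted p = 0.0202), Itga2 by -0.47 (adjusted p = 0.00958) and Cd36 by -0.23 (adjusted p = 0.0477). Nid2 (nidogen 2) was higher by 0.27 (adjusted p = 0.0199). Only the Loxl1 call held under every scaling, filter and variance choice and without any 1 array (adjusted p up to 0.0187). With 1 array left out, P3h2 was lost without the first or the second control or the second γ- array, and Prelp without the first or the third control or the first or the second γ- array. Lama1 was lost without the third control or the first or the third γ- array, Nid2 without the second or the third control or the first or the third γ- array, and Itga2 without the third γ- array (adjusted p = 0.051). Cd36 was lost without any 1 of the 6 arrays, under median centring, the 60th percentile filter, no intensity trend and the replicate block, and with the mean over probe sets. At the 60th percentile Lama1 and Itga2 were not tested. In the 23/24 group 0 genes of these lists were called.

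**Figure D5:**
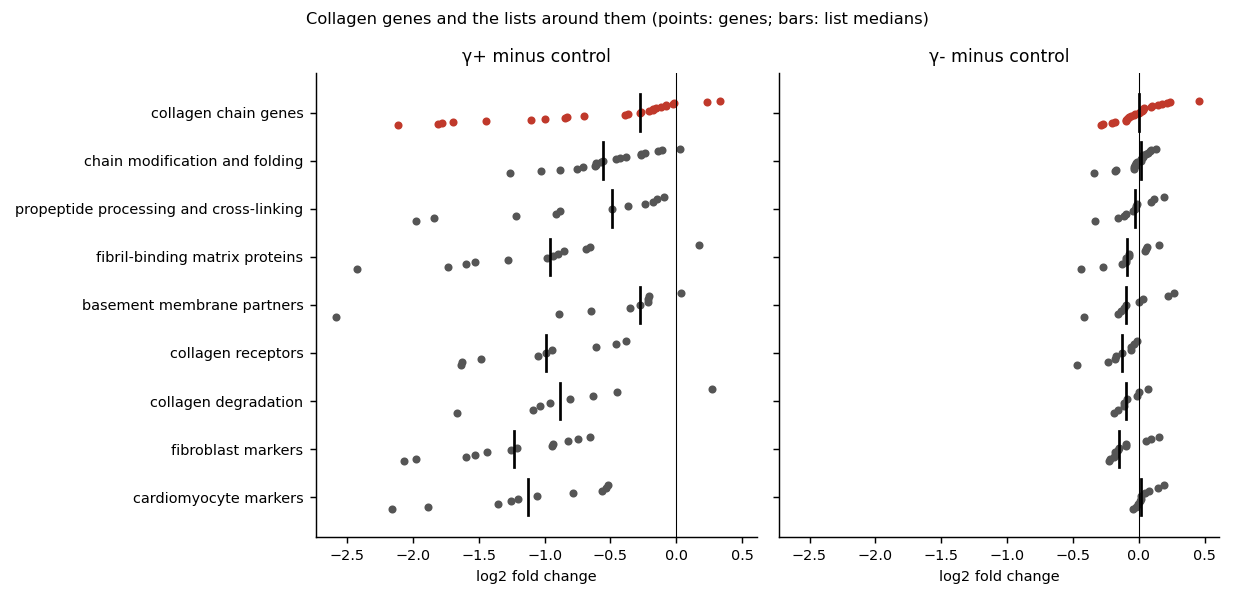
Log2 fold change against control (horizontal axes) of the collagen chain genes and of the genes of 6 collagen-related lists and 2 marker lists, in the γ+ (left) and γ- (right) groups; points are genes and bars are list medians. On the left the medians run from -0.27 to -1.23, and on the right they lie near 0.

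Markers of cell types that make collagen moved with these values. All 12 fibroblast markers, none of them a collagen, were lower in the γ+ group, with a median of -1.23. Per array, their mean log2 level was 6.74 to 6.91 in the γ+ group, against 8.07 to 8.14 (control), 8.004 to 8.025 (γ- group) and 8.03 to 8.14 (23/24 group). Dcn, Lum, Dpt, Postn, Ddr2 and Lox are on this list and also on those above, so these counts are not separate. Cardiomyocyte markers were lower too, in 10 of 10 genes with a median of -1.13, at means of 10.57 to 10.66 against 11.73 to 11.79 in the control. In bulk RNA fewer cells of a type and less RNA per cell cannot be told apart, and the part of cell composition in the collagen values was not tested.

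Other cell types showed the same direction in the γ+ group. Lower genes numbered 9 of 9 endothelial markers (median -0.74), 9 of 10 of smooth muscle and pericytes (median -0.75), 4 of 4 epicardial and mesothelial markers (median -1.57), 4 of 6 macrophage markers (median -0.28) and 0 of 1 Schwann cell marker. Endothelial markers had means of 5.52 to 5.66 in the γ+ group against 6.34 to 6.36 in the control. Epicardial and mesothelial markers had 5.83 to 6.01 against 7.34 to 7.44. In the γ- group 0 of 12 fibroblast markers were called against control by limma, with a median of -0.15 beside -0.01 over all genes. With array weights 5 were lower and 1 higher, and the share of all genes under that setting is not given here. Beside 3.88% of all genes lower and 3.06% higher in the γ- group, 2 of 9 endothelial markers were lower, but 0 under median centring. Of 6 macrophage markers 3 were lower, 2 under median centring and 1 at the 60th percentile filter. The part of these cells in the γ- collagen values was not tested.

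The 12-array profile of the chain genes, each centred and then averaged, was most closely followed by Trpv2, a cation channel (Pearson r = 0.996 over 12 arrays). Next came Gata5, a cardiac transcription factor (r = 0.994), Sh3bgr and Pkia (both r = 0.989) and Acta2, smooth muscle actin (r = 0.988). The points share the γ+ arrays, and of the 10000 other genes 792 had an r over 0.95, so these are a description. Among the members, r with this profile, of which each is a part, ran from 0.98 for Col1a2 to -0.14 for Col11a2.

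RefSeq promoter entries (GRCr8) matched 20 of the 25 chain genes and none was matched for Col1a1, Col2a1, Col3a1, Col12a1 and Col14a1. Both strands of the 250 bases before each start were searched for sequence motifs, and the same was done for all 27457 promoters. GGGCGG occurred in 11 of the 20 (55.0%), against 32.4% of all promoters, and their median GC content was 62.0% against 52.0%. CCAAT occurred in 7 (35.0% against 34.3%) and TATAAA in 4 (20.0% against 13.1%). TGANTCA, read by AP-1, occurred in 0 (against 6.4%), and GGAATG, read by TEAD factors, in 2 (10.0% against 11.8%). A MEF2 site occurred in 1, that of Col13a1 (5.0% against 3.1%), and a CArG box in 1, that of Col6a4 (5.0% against 1.5%). GGGCGG was in 6 of the 10 matched chain genes that were lower in the γ+ group and in 5 of the 10 others. A match describes letters in this window and does not show that a factor binds there.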

How the data were processed

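Expression was measured on 12 arrays, and the deposited values formed 1 table of 28826 probe sets, taken as log2 intensities from their range (1.09 to 13.89). MAS5, without a version, is the tool in the submitters' processing notes. How the authors corrected background and normalized, and the log base, is not given in the sources used. A probe table named 1 gene for 15209 probe sets, several for 306 and none for 13311, and RefSeq (GRCr8) held the Entrez identifiers of 15178 of the single-gene ones.

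Only probe sets whose mean passed the 40th percentile (log2 4.78) were kept, and the probe set of highest mean stood for each gene, which gave 10025 genes. Groups were compared by limma (3.58.1, under R 4.3.3), fitting all 12 arrays with 8 residual degrees of freedom and an intensity trend in eBayes, and Benjamini-Hochberg adjustment within each of 6 comparisons. The procedure was tested on simulated data. With 3 arrays per group, their number limits the precision.

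The members, gene lists and tests were chosen with earlier results of these data known. Arrays were described singly for chains usual in heart, for up to 3 separated changes per class and comparison, and for chains called against the majority or in the γ- group; genes outside the lists' 3 of lowest p (2 in the γ- group) and the remaining members were named after their values were seen. Alternatives were other array scalings, filters, probe set and variance choices, array weights, the compared arrays alone, a fold minimum, a replicate block and leaving out each array. Comparisons other than the 23/24 group against control were set across what appear to be separate normalization runs.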

Additional observations from a re-analysis of the deposited data

How the results depend on the processing

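Over the alternatives tried for each, the fold minimum left aside, 12 of the 16 chain genes called in the γ+ group against control stayed called in all (not Col4a3, Col10a1, Col12a1 and Col16a1), as did 0 of 3 in the γ- group, 13 of 15 in the γ+ against the γ- group, 15 of 20 in the γ+ against the 23/24 group and 1 of 2 (Col12a1) in the γ- against the 23/24 group. Requiring a fold of 1 log2 left 6, 7 and 6 lower chain genes in the γ+ group against control, the γ- and the 23/24 group, and 0 in each other count that was above 0. The 60th percentile filter, which tests fewer genes, took the 3 medians of the γ+ group to -0.997, -1.01 and -0.99, the lower count against the 23/24 group to 13, the F test count to 13 and the count higher in the γ+ group against control to 0. That last count was 2 under median centring, quantile normalization and array weights, and 0 to 2 with 1 array left out. In the γ- group against control the lower count was 0 under median centring, the 60th percentile filter, no intensity trend and the replicate block, and 0 with any 1 array left out. The higher count there was 1 under the 60th percentile filter and 0 to 2 with 1 array left out. Median centring took the median of the γ+ against the 23/24 group to -0.22 and turned Col12a1 there to 0.012 (adjusted p = 0.883). In the γ- against the 23/24 group the lower count was 0 under median centring, the 60th percentile filter and the replicate block, 2 under quantile normalization and with the mean over probe sets, 3 with no filter, 8 with array weights, 7 with the 6 arrays alone, and 0 to 2 with 1 array left out. The cause of these shifts was not tested, and the shares of all genes called under these alternatives are not given here.

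Samples with the same replicate number did not deviate together (r from -0.22 to 0.12 in 18 pairs, 1 of them over 0.1). The labels do not say whether equal numbers mark paired samples, and these correlations cannot settle it. With the number as a block, 15 chain genes were lower and 1 higher in the γ+ group against control, 14 lower against the γ- group and 19 against the 23/24 group. The log base and normalization are unknown, 3 arrays a group limit small changes, and dim probe sets near the background bound what can be seen of 12 chain genes.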
